A study of Mus musculus with 6 samples.

Results

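The genes described here handle iron and heme in proximal tubules dissected from Clcn5 knockout and wild type mice: Tfrc, Steap3, Slc11a2, Fth1, Ftl1, Slc40a1, Aco1, Ireb2, Hmox1 and Blvrb. Their members are every probe set, the group of short probes that reads 1 transcript, that the platform annotation gives to 1 of these 10 symbols and to no other. The rule found 23 probe sets of 9 genes, out of 45101 probe sets on the array, whose single-symbol probe sets stand for 18193 genes. Ftl1, the ferritin light chain, shares all 3 of its probe sets with other symbols and has no value of its own here.

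The disrupted gene, Clcn5, codes for ClC-5, which exchanges chloride for protons and sits mainly in endosomes of the proximal tubule. There were 3 arrays of Clcn5 knockout and 3 of wild type tubules, each hybridised with RNA pooled from several mice (3 to 4 by the design text, 7 by the records of the arrays). Strain, age, sex and the deleted stretch of Clcn5 are not given in the sources used here, and both groups were perfused and dissected in ice-cold salt solution under halothane. The records call the pools of a group biological replicates, so the p-values measure the spread between pools.

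The arrays were Affymetrix mouse arrays, and a value is a MAS5 signal, a brightness on a linear scale whose trimmed mean was 150 for every array. All 4 probe sets of Clcn5 were lower on every knockout array, by 2.83-fold to 7.31-fold. The median signal was 40.9 to 48.8, highest on knockout array 3, which was also the only array with another type and lot of solution. Arrays were washed on 2 fluidics stations, with knockout array 3 and wild type array 2 on station 2. For the early proximal tubule (S1 and S2), all 9 markers passed the filter on dim probe sets, with a summed signal of 29700 to 32001 in knockout and 29666 to 33669 in wild type; 2 of the 9 were called lower and 0 higher by limma (2 and 1 at an unadjusted p under 0.05). For the late proximal tubule (S3), all 7 markers were tested, with 1 called higher, Slc7a13 (log2 change 0.37, limma adjusted p = 0.00653), and 0 lower (2 and 0 at an unadjusted p under 0.05). Their summed signals overlapped, with 15729 to 17111 in knockout and 14200 to 15978 in wild type. The marker lists were read with 1 probe set per gene, and of all 11620 genes read this way 2.8% were called higher and 2.8% lower, and 10% were higher and 8.93% lower at an unadjusted p under 0.05. Markers of leukocytes were higher in knockout for 4 of 14 tested genes and lower for none by limma (6 and 0 at an unadjusted p under 0.05), with a summed signal of 3431 to 3603 against 2449 to 2504, and Itgam was below the filter. Of the 4 called genes, Lyz1 had wild type signals of 35.9, 26.6 and 19.8, under the filter. Summed markers of the thick ascending limb (13959 to 15408 against 11792 to 12331), of podocytes (1271 to 1542 against 1023 to 1069) and of intercalated cells (2544 to 2621 against 2009 to 2153) were also higher on every knockout array, with 1 of 6, 2 of 5 and 2 of 5 tested genes called higher and 0 lower by limma (at an unadjusted p under 0.05, 3 higher and 0 lower in each of these lists). The sums were higher on every knockout array for markers of the distal convoluted and connecting tubule too (15932 to 16795 against 13531 to 15847). So were those of fibroblasts and smooth muscle (1098 to 1107 against 950 to 1047). In the former 2 of 5 tested genes were called higher and 0 lower by limma (3 and 0 unadjusted), in the latter 0 of 6 (2 and 0 unadjusted). The sum was lower for principal cells (3236 to 3423 against 3464 to 3986). There 1 of 6 was called lower and 0 higher (2 and 1 unadjusted), with a median log2 change of −0.05. Sums of endothelial markers overlapped (2743 to 3047 against 2804 to 2916), with 0 of 9 called. No signal on the arrays is exactly 0. Tubule samples hold all RNA of the dissected pieces, so fewer cells of a type and less RNA per cell cannot be told apart. Markers of the thick ascending limb and distal tubule were bright as well, so signals cannot be assigned to proximal cells alone.

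Most cells take in iron bound to transferrin. The transferrin receptor carries it into endosomes, where acid releases the iron, a reductase turns it to its ferrous form and a transporter moves it to the cytosol. There it is stored in ferritin, used, or exported through ferroportin. Iron regulatory proteins bind hairpins in the messenger RNAs of several of these genes when iron is scarce, which stabilises the transferrin receptor transcript and blocks translation of ferritin. Heme is opened by heme oxygenase to iron, carbon monoxide and biliverdin, and biliverdin reductases turn biliverdin to bilirubin. In the kidney the proximal tubule also takes up filtered transferrin and heme proteins through megalin and cubilin.

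Blvrb and Blvra encode the biliverdin reductases, and since their transcripts changed in opposite directions (values further on), the sequences before their starts are shown side by side. They are the 250 bases upstream of the start in RefSeq (GRCm38.p6), read on the plus strand at chr7:27447728-27447977 for Blvrb, at the more upstream of its 2 annotated starts, and at chr2:127070407-127070656 for Blvra. Capitals mark a match to TGACNNNGC, the core of the antioxidant response element, searched on both strands.
Blvrb: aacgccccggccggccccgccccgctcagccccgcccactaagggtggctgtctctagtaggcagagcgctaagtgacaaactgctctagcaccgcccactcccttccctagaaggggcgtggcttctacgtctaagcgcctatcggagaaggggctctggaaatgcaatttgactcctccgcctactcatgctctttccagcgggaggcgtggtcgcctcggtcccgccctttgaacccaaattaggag
Blvra: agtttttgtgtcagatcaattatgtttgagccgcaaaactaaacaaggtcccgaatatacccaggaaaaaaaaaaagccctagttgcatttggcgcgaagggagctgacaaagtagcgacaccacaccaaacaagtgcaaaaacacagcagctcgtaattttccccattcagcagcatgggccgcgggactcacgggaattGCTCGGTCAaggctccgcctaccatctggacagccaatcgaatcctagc
Blvra held 1 match, on the minus strand, and neither start of Blvrb held one. Of 32851 windows of this length before annotated starts, 10.2% held at least 1 match. Windows were found for 7 of the 10 genes, not for Hmox1, Slc40a1 and Slc11a2, and none of their 13 windows held a match. A match or its lack describes these letters only.

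The comparison asked which genes of iron and heme handling differ in the tubules when Clcn5 is disrupted. Blvrb and Hmox1 were lower in knockout, by 2.81-fold and 2.28-fold. Blvra, a biliverdin reductase gene outside the set, was 1.24-fold higher. Which reductase acts on biliverdin in these tubules was not tested. The iron exporter gene Slc40a1 was lower by 1.26-fold on 1 of its 2 probe sets. Tfrc, Slc11a2, Fth1, Ireb2 and Aco1 did not pass the test on any tested probe set, and Steap3 was too dim to be tested. Of 16 tested probe sets, 3 were lower at an adjusted p under 0.05, where 2.46% of all 22519 tested probe sets were, and 0 were higher by limma, where 2.29% were. Either way 3 of 16 passed, against 4.76% of all tested probe sets. The members were chosen with earlier results of these data known, so these shares do not test for an excess. In 4 of the 16 all knockout arrays lay below all wild type arrays, against 11.2% of all tested probe sets, and in 0 above, against 12%. The same 4, all lower, had an unadjusted p under 0.05, where 8.57% of all tested probe sets were lower and 8.71% higher. The median log2 change was −0.03 over the 16 and 0.00 over all tested probe sets. A further 4 probe sets were too dim to be tested and 3 are control probe sets of Tfrc.

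**Figure D1:**
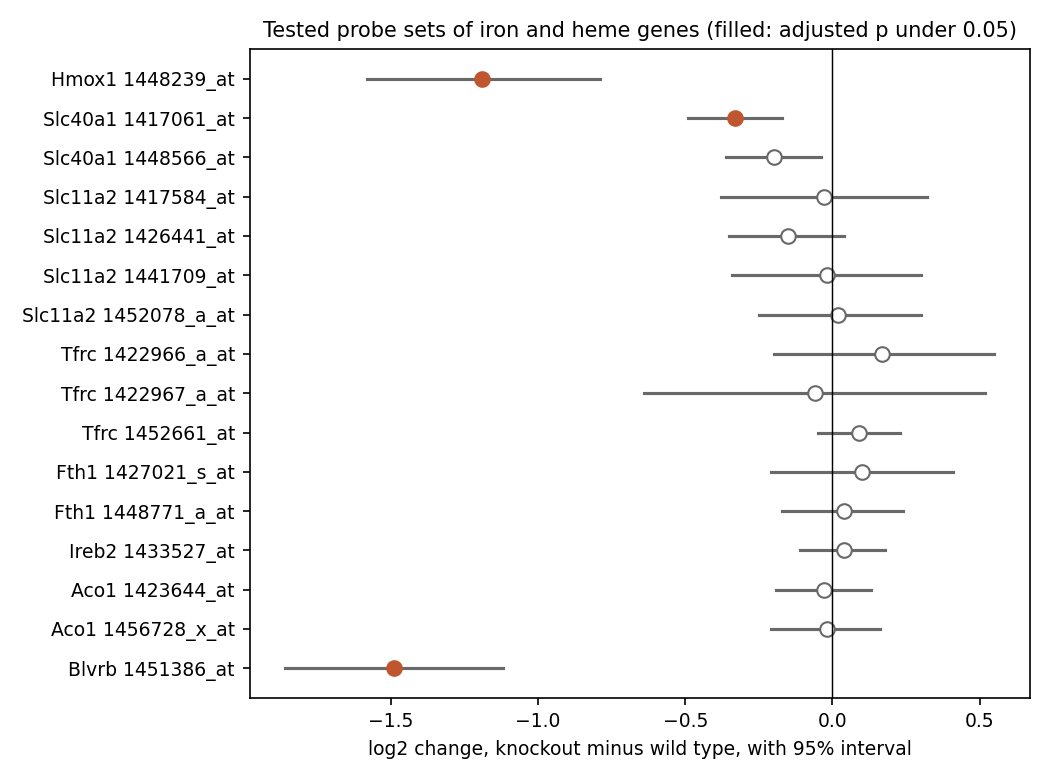
Log2 change, knockout minus wild type, with its 95% interval, of the 16 tested probe sets of the member genes; filled points have a limma adjusted p under 0.05. Blvrb and Hmox1 lie at −1.49 and −1.19, the first probe set of Slc40a1 at −0.33, and the 13 others between −0.20 and 0.17.

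Blvrb encodes biliverdin reductase B, which also acts as a flavin reductase. Its probe set 1451386_at had signals of 276, 248 and 291 on wild type arrays 1 to 3 and of 114, 108 and 72.7 on knockout arrays 1 to 3. All knockout arrays were below all wild type arrays, and knockout array 3 was the lowest. The signal fell from 272 ± 21.8 (SD, n = 3) to 98.2 ± 22.2 (SD, n = 3), a log2 change of −1.49 (SE 0.17, 95% interval −1.86 to −1.12, limma adjusted p = 0.000498). By this change it was the 48th lowest of all tested probe sets. The change was −1.35 on station 1 and −1.77 between the single arrays of station 2. Without knockout array 3 it was −1.29 (limma adjusted p = 0.000248).

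Hmox1 encodes the inducible heme oxygenase, whose transcript rises with heme and oxidative stress. Probe set 1448239_at gave signals of 323, 392 and 312 on the wild type arrays and of 203, 119 and 138 on the knockout arrays. The groups did not overlap, and knockout array 1 came closest to wild type. The signal fell from 342 ± 43.1 (SD, n = 3) to 153 ± 43.9 (SD, n = 3), a log2 change of −1.19 (SE 0.18, 95% interval −1.58 to −0.79, limma adjusted p = 0.0032). It was the 95th lowest of the tested probe sets. On station 1 alone the change was −1.03 and no longer passed (limma adjusted p = 0.0608), and the arrays of station 2 differed by −1.50. The constitutive heme oxygenase gene Hmox2, chosen after its values were seen, had signals of 763, 747 and 716 in wild type and of 929, 887 and 821 in knockout. Its log2 change was 0.24 (95% interval 0.09 to 0.40, limma adjusted p = 0.0887), which missed the threshold.

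Slc40a1 encodes ferroportin, the one known exporter of cellular iron. On probe set 1417061_at the wild type arrays lay close together, at 715, 725 and 716, and the knockout arrays were at 598, 591 and 524. Knockout was lower on all arrays, with a mean of 571 ± 40.9 (SD, n = 3) against 718 ± 5.43 (SD, n = 3) and a log2 change of −0.33 (SE 0.07, limma adjusted p = 0.0244). Probe set 1448566_at gave 405, 394 and 428 in wild type and 369, 345 and 355 in knockout. Its groups did not overlap either, but its log2 change of −0.20 (95% interval −0.36 to −0.04) did not pass (limma adjusted p = 0.191). The call on 1417061_at was lost in 8 of 18 alternatives, with adjusted p up to 0.348. Among them were the fits without wild type array 1, 2 or 3 (limma adjusted p = 0.0928, 0.0958 and 0.0856) and without knockout array 3 (0.051), where the log2 change was −0.27.

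Hmox1 and Slc40a1 are also expressed by macrophages. On these arrays 4 of 14 tested leukocyte markers were called higher in knockout and 10 were not called, and the median log2 change was 0.33. Csf1r, Cd74 and Laptm5 were higher, at 0.58, 0.73 and 0.65. Lyz1 was at 2.01, but its wild type signals of 35.9, 26.6 and 19.8 lay under the filter, which it passed through its knockout signals. Among those not called, Lyz2 was at 0.21 with overlapping groups (limma adjusted p = 0.534) and Fcer1g at −0.01 (0.989). Blvrb is abundant in red cells. Of 13 erythroid entries 3 were tested, with a summed signal of 533 to 557 in knockout and 420 to 490 in wild type. Of these, 1 was higher, Slc4a1, which intercalated cells of the collecting duct also express. Klf1, an erythroid transcription factor, had signals of 89.7, 63.2 and 116 in knockout and of 130, 128 and 138 in wild type, without overlap, and its log2 change of −0.60 missed the threshold (limma adjusted p = 0.147). Hbb-b2 was at 0.32 with overlapping groups, and Hba-a1, Hba-a2, Alas2, Epb42 and Car1 were below the filter. The part of these cells in the falls was not tested.

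**Figure D2:**
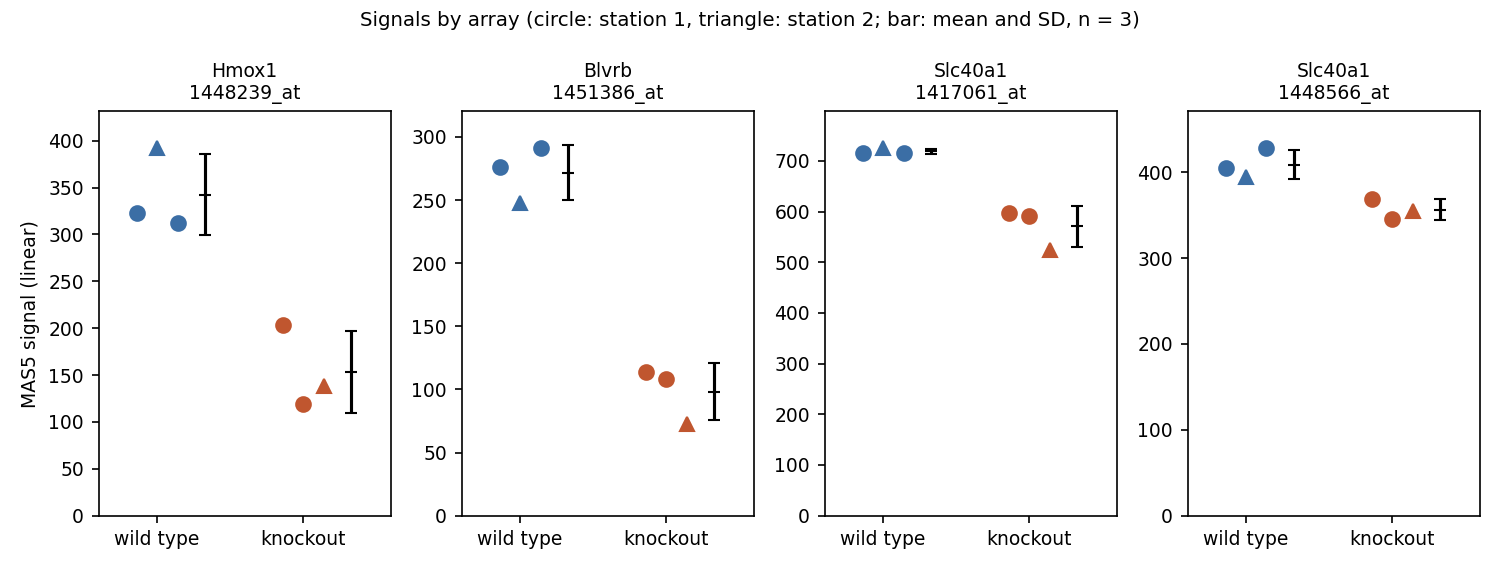
MAS5 signals on a linear axis, per array, of the 4 probe sets in which all knockout arrays lay below all wild type arrays; circles are station 1, triangles station 2, and the bars give the mean and SD of 3 arrays. Blvrb fell from 272 to 98.2 and Hmox1 from 342 to 153, while the steps of Slc40a1 were smaller.

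The transcript of the transferrin receptor gene, Tfrc, was read by 6 probe sets, 3 of them controls. The brightest, 1452661_at, gave 1030, 996 and 963 in wild type and 1060, 1016 and 1100 in knockout. The groups overlapped, and the log2 change of 0.09 had a 95% interval from −0.05 to 0.23 (limma adjusted p = 0.544), so that the interval left out rises of more than 1.17-fold. Probe set 1422966_a_at gave 245, 225 and 178 in wild type and 188, 259 and 289 in knockout, with a log2 change of 0.17 (95% interval −0.20 to 0.55).

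The third tested probe set of Tfrc, 1422967_a_at, varied most: knockout arrays 1 to 3 stood at 44.2, 94 and 62.5, around the wild type values of 72.8, 58.6 and 69.2. Its log2 change was −0.06 (95% interval −0.64 to 0.52). The other 3 are controls placed along the transcript for a check of RNA integrity and stayed outside the test. The ratio of the 3′ to the 5′ control was 4.49, 4.77 and 4.64 in knockout and 4.32, 3.45 and 3.63 in wild type, which is higher on every knockout array (a measure singled out after its values were seen). The same ratio was 0.774, 0.786 and 0.828 for Gapdh in knockout and 0.74, 0.749 and 0.779 in wild type, and for actin it was 1.1 to 1.3 and 1.24 to 1.36. The 5′ control of Tfrc was dim, with signals of 17 to 35.5, so this ratio rests on low values.

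Steap3 encodes the endosomal ferrireductase that works with the receptor. All 3 of its probe sets were below the filter, which lay at a signal of 41.9. The brightest, 1430355_a_at, had signals of 35.8, 30.4 and 56.1 in wild type and of 16.3, 39.5 and 47.5 in knockout. The groups overlapped on each of the 3, and without detection calls such signals could not be told from background.

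Slc11a2 encodes DMT1, which moves ferrous iron out of endosomes and across apical membranes. The brightest of its 4 tested probe sets, 1426441_at, had signals of 403, 388 and 371 in wild type and of 339, 322 and 385 in knockout. Knockout arrays 1 and 2 were the lowest and knockout array 3 lay inside the wild type range, and the log2 change was −0.15 (95% interval −0.35 to 0.04, limma adjusted p = 0.411). The 3 others, 1452078_a_at, 1417584_at and 1441709_at, had changes of 0.02, −0.03 and −0.02. In each of them the groups overlapped, and the 95% intervals stayed within a 1.3-fold change in either direction.

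Fth1 encodes the ferritin heavy chain, which oxidises iron for storage. Probe set 1448771_a_at had signals of 7182, 6677 and 8075 in wild type and of 6802, 7535 and 8128 in knockout. The groups overlapped, with a log2 change of 0.04 (95% interval −0.17 to 0.24, limma adjusted p = 0.897). Probe set 1427021_s_at, whose suffix marks probes shared by several transcripts, gave 6020, 5381 and 7279 in wild type and 5765, 6223 and 8146 in knockout. Its log2 change was 0.10 (95% interval −0.21 to 0.41), and was −0.14 on station 1 and 0.60 between the arrays of station 2.

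The iron sensors did not pass the test. Ireb2 encodes iron regulatory protein 2, which is degraded when iron is plentiful, and its signals were 489, 511 and 485 in wild type and 510, 508 and 509 in knockout. The log2 change was 0.04, and the 95% interval left out falls of more than 1.08-fold and rises of more than 1.14-fold (limma adjusted p = 0.821). Aco1 encodes cytosolic aconitase, which becomes iron regulatory protein 1 when it loses its iron-sulfur cluster. Probe set 1456728_x_at had signals of 3694, 3770 and 3990 in wild type and of 3792, 4121 and 3378 in knockout, with a log2 change of −0.02 (95% interval −0.21 to 0.16). Probe set 1423644_at was at −0.03 (95% interval −0.19 to 0.13), and 1447080_at, with signals of 32.7 to 47.6, was too dim to be tested. These regulators are controlled mostly as proteins, which arrays do not measure.

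**Figure D3:**
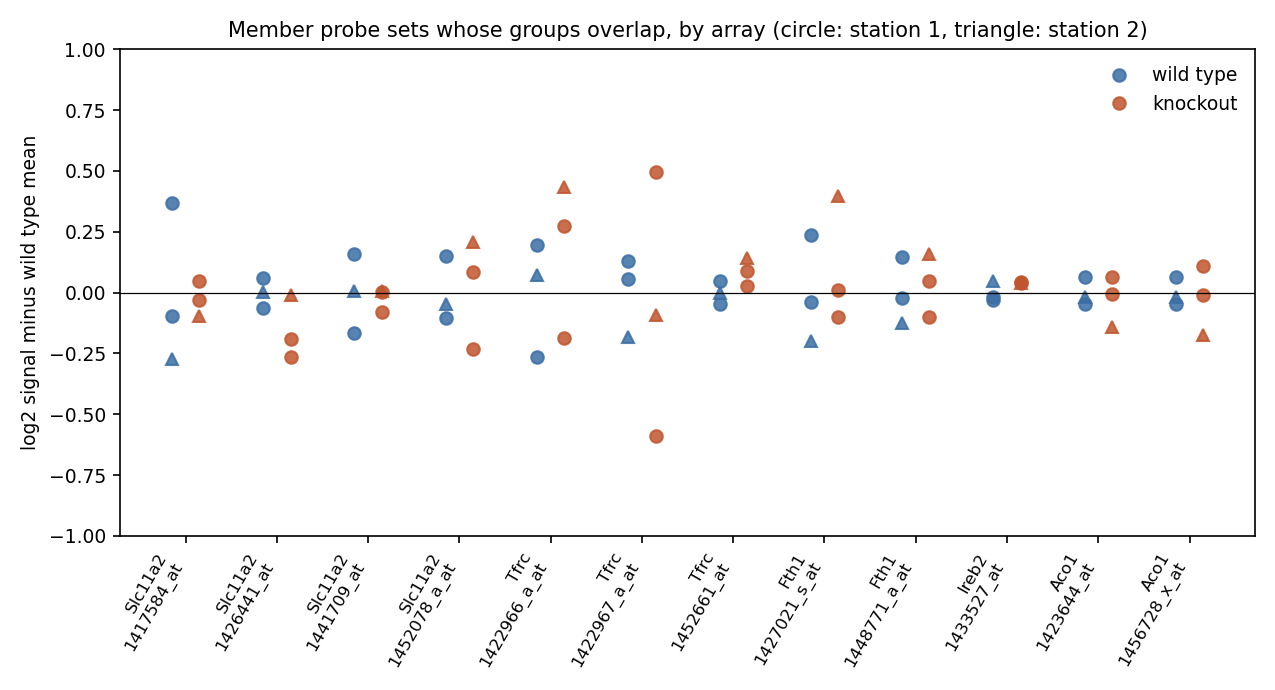
Log2 signal on each array minus the wild type mean of that probe set, for the 12 tested probe sets in which the groups overlapped; circles are station 1 and triangles station 2. In each the knockout range overlaps the wild type range, and the knockout points spread most for Tfrc 1422967_a_at, with signals of 44.2 to 94.

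Lists of 67 further entries, 57 of iron and heme handling and 10 NRF2 targets, were read with 1 probe set per gene, the tested one with the highest mean. Of 39 tested genes of iron and heme handling, 3 were lower and 3 higher at an adjusted p under 0.05 by limma. With the 8 tested NRF2 targets, of 47 genes, 4 were lower and 3 higher at an adjusted p under 0.05, where 2.8% of 11620 genes were lower and 2.8% higher, 5.59% in all. The median log2 change was 0.02 over the 39 and 0.00 over the 47. The counts over the 47 moved with single arrays: 2 genes were lower and 1 higher without wild type array 1, 1 was higher without wild type array 2 or 3, and 5 were higher without knockout array 3.

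In the list of iron uptake and reduction, 2 of 7 tested genes fell and 1 rose. At an unadjusted p under 0.05, 3 were lower and 1 higher, where 8.93% of all 11620 genes were lower and 10% higher. Steap1, which counts among the 3, was at −0.53 and missed the threshold (limma adjusted p = 0.0703). Its other tested probe set was at −0.54. Slc39a8 encodes ZIP8, a carrier of zinc, manganese and ferrous iron, and had signals of 145, 142 and 136 in wild type and of 229, 247 and 286 in knockout. Every knockout array was higher, a 1.8-fold rise (log2 change 0.85, SE 0.11, limma adjusted p = 0.00114) that passed in 18 of 18 alternatives. Its other tested probe set, at 0.72, missed the threshold (limma adjusted p = 0.0619).

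Mcoln1 encodes mucolipin 1, a channel that lets iron and calcium out of late endosomes and lysosomes. It fell 1.42-fold, from 541, 529 and 514 in wild type to 378, 337 and 403 in knockout (log2 change −0.51, SE 0.08, limma adjusted p = 0.00493). Its other tested probe set had a log2 change of −0.49 (limma adjusted p = 0.0266), and the call held in 18 of 18 alternatives. Steap2, a metalloreductase of the family of Steap3, fell 1.35-fold, from 693, 616 and 617 to 461, 508 and 454 (log2 change −0.44, limma adjusted p = 0.00904). Of its 4 other tested probe sets, 1438773_at passed as well, at −0.47, and the rest were at −0.46, −0.16 and −0.07. The call of Steap2 was lost in 5 of 18 alternatives, among them without wild type array 1 (limma adjusted p = 0.0533).

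Among 7 tested genes of iron export and systemic control, 1 rose. At an unadjusted p under 0.05 by limma, 1 was lower, Hfe, and 1 higher, Cp. Cp encodes ceruloplasmin, the copper oxidase that loads exported iron on transferrin, and rose 1.43-fold, from 125, 123 and 138 to 196, 198 and 161 (log2 change 0.51, SE 0.12, limma adjusted p = 0.0374). Its other tested probe sets were at 0.71 and 0.55 and did not pass. The call of Cp was lost in 10 of 18 alternatives, with adjusted p up to 0.138. Hfe, the gene of hereditary hemochromatosis, was at −0.20 (limma adjusted p = 0.268), and at −0.26 on its other tested probe set (0.564).

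No gene passed in the lists of iron chaperones and ferritin turnover and of mitochondrial iron and iron-sulfur clusters, each with 5 genes tested by limma. At an unadjusted p under 0.05 there was 1 gene in the first list, Fbxl5, and 0 in the second, on the probe sets that stand for the genes. In the first, Fbxl5, which marks iron regulatory protein 2 for degradation, was at 0.42 (limma adjusted p = 0.0704), with wild type arrays at 459, 443 and 480 and knockout arrays at 721, 629 and 512. Ncoa4, the receptor that takes ferritin to lysosomes, was at −0.17 (0.33), and at −0.05 on its other tested probe set (0.861). In the second, the mitochondrial importer gene Slc25a37 was at −0.26 (limma adjusted p = 0.331) and the desulfurase gene Nfs1 at 0.07 (0.669). The other tested probe set of Nfs1 had the opposite sign, at −0.30 (limma adjusted p = 0.0761), with knockout arrays at 518, 470 and 430 below wild type arrays at 588, 590 and 559.

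Of 7 tested genes of heme synthesis 1 fell. At an unadjusted p under 0.05 by limma, 1 was lower and 0 higher. Cpox, coproporphyrinogen oxidase, had signals of 832, 839 and 979 in wild type and of 641, 516 and 480 in knockout. The groups did not overlap, and the log2 change was −0.70, a 1.63-fold fall (SE 0.11, limma adjusted p = 0.00424). Its other tested probe set was at −0.34 (limma adjusted p = 0.0817). The call of Cpox held in 17 of 18 alternatives and was lost without an intensity trend (limma adjusted p = 0.051), and with its probe sets averaged the log2 change was −0.52. Alas1, the first and rate-limiting enzyme, was at 0.15 (limma adjusted p = 0.312), and its other tested probe set at 0.49 with a wide 95% interval from −0.66 to 1.64 (limma adjusted p = 0.696). Ppox was at 0.06 and Uros at −0.04, but their other tested probe sets were at −0.69 and 0.36. Those of Alad, Urod and Fech were between −0.18 and 0.06.

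Of 8 tested genes of heme breakdown, transport and scavenging 1 rose. At an unadjusted p under 0.05 by limma, 1 was lower, Flvcr2, and 2 were higher, Blvra and Hmox2. Blvra, biliverdin reductase A, had signals of 1054, 1069 and 1055 in wild type and of 1343, 1248 and 1351 in knockout. All knockout arrays were higher, a 1.24-fold rise (log2 change 0.31, SE 0.06, limma adjusted p = 0.0161), against the fall of Blvrb on the same arrays. The call of Blvra was lost in 6 of 18 alternatives, among them without wild type array 1, 2 or 3 (limma adjusted p = 0.0842, 0.0519 and 0.0628), while its log2 change stayed between 0.29 and 0.35. Flvcr2, a transporter first described for heme, was at −0.56 and missed the threshold (limma adjusted p = 0.0595), with wild type arrays at 167, 174 and 173 and knockout arrays at 136, 93.8 and 124.

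Hmox1 is a target of NRF2, the transcription factor of the oxidative stress response, and other targets were read beside it. Of 8 tested, 1 fell: Gclc, which makes the first step of glutathione synthesis, was 1.35-fold lower, with 1735, 1597 and 1788 in wild type and 1345, 1302 and 1161 in knockout (log2 change −0.43, SE 0.08, limma adjusted p = 0.00863). Its other tested probe set was at −0.52 (limma adjusted p = 0.0406). The call of Gclc was lost in 3 of 18 alternatives, among them without wild type array 1 (limma adjusted p = 0.051). At an unadjusted p under 0.05 by limma, 2 of the 8 were lower, Gclc and Nqo1, and 0 higher. Of all 11620 genes, 8.93% were lower and 10% higher in this way. Nqo1, a quinone reductase, was at −0.35 (limma adjusted p = 0.281), and over this list, with 1 probe set per gene, the log2 changes had a median of −0.06. Other probe sets of these genes could differ. Srxn1 was at −0.07, and at −0.80, −0.28 and −0.07 on its others. Txnrd1 was at −0.09, and at −0.17 and −0.50 on its others. Gstm1 was at −0.05, and at −0.46, 0.06 and −0.07 on its others. The other tested probe sets of Gclm and Gsta3 were at 0.02 and 0.04.

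**Figure D4:**
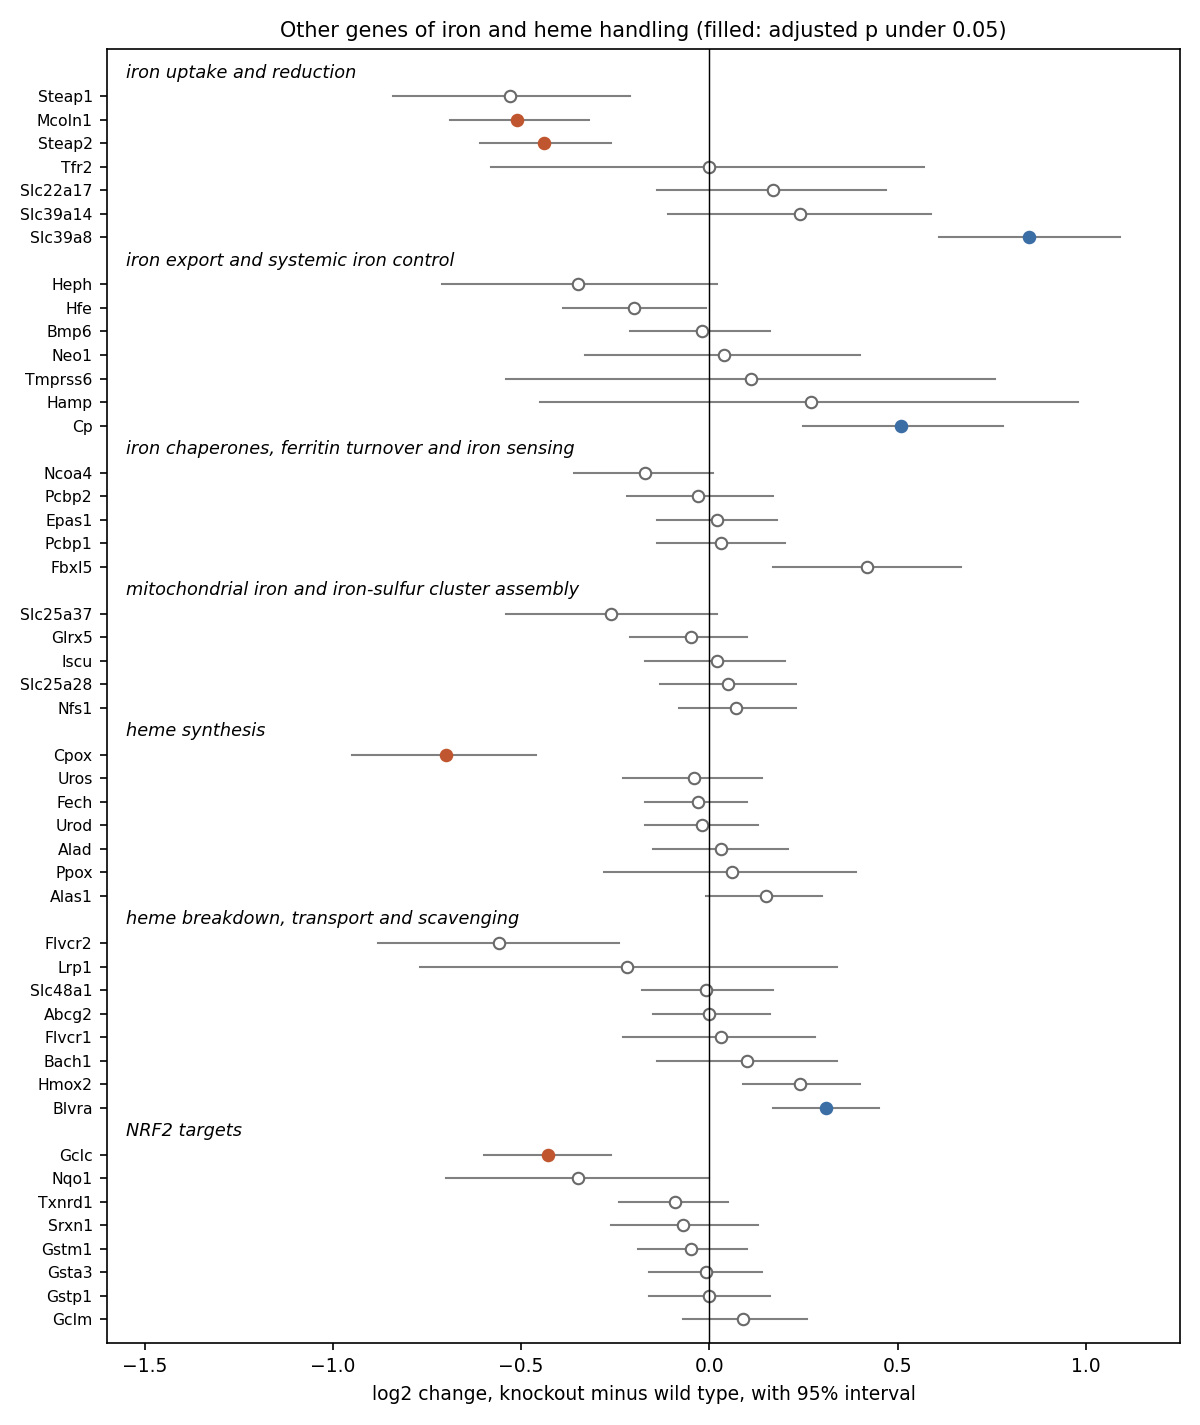
Log2 change, knockout minus wild type, with its 95% interval, of the 47 tested genes of the iron, heme and NRF2 lists, 1 probe set each; filled points have a limma adjusted p under 0.05, orange for lower and blue for higher. Slc39a8, Cp and Blvra lie above 0 and Cpox, Mcoln1, Steap2 and Gclc below.

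Blvrb had the smallest p of the members. The genes whose log2 signals followed it most closely over the 6 arrays were Cldnd1, Oat, Bhlhe40, Cpeb3 and Dbp, with Pearson's r of 0.999, 0.998, 0.997, 0.996 and 0.996. The arrays fall into the 2 groups compared, so these values mostly restate that the genes were lower in knockout, with log2 changes of −0.80, −0.33, −0.32, −0.43 and −0.94.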

How the data were processed

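Per the submitters' processing notes, the authors used GCOS 1.4 and MAS5. By their values, the deposited intensities are linear, not logged. Total RNA was primed from the poly(A) tail, per the labels. Detection calls were not used here. Of 45101 probe sets, 64 controls were left out of the tests, and 34945 of the other 45037 carry 1 symbol, 932 several and 9160 none. Of the former, 34754 matched the mouse RefSeq table. No build is named for the arrays, so RefSeq served for names and promoter sequences only.

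Signals were turned to log2, and probe sets were kept if their mean reached the median of those that are not controls (signal 41.9), which left 22519. The groups were compared in limma 3.58.1 under R 4.3.3 (lmFit, then eBayes with its trend option; 4 residual degrees of freedom). Tests were two-sided, and Benjamini-Hochberg adjusted p-values over all 22519 were called at 0.05. The fit is over probe sets since the rule selects them. The number of arrays limits the precision (median SE 0.13), and an exact permutation test of 3 against 3 could not go below 0.10. Fold changes are ratios of geometric means. Plots were drawn with matplotlib 3.10.9, and tables were made in pandas 2.3.3 under Python 3.11.15. The 18 alternatives changed the normalization, filter, probe set summary, intensity trend, array weights or block, took station 1 alone or left out 1 array. The limma fit was also run on simulated signals with independent noise drawn from its own fitted variances. These held no stations or solution lots, so they cannot show how those affect the calls. All members are named. Of each other list the genes past the threshold are named, or, where fewer than 2 passed, also those with the smallest p up to 2. Some further genes, such as Hmox2, Steap1, Srxn1 and Lyz2, were named after their values were seen. The members and lists were chosen with earlier results of these data known.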

Additional observations from a re-analysis of the deposited data

How the results depend on the processing

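The falls of Blvrb (18 of 18 alternatives) and Hmox1 (17 of 18) passed limma's threshold except Hmox1 on station 1 alone, and Slc40a1 1417061_at in 10 of 18; their direction held in all. Member probe sets called lower numbered 1 on station 1 alone and 2 to 3 with 1 array left out, and 0 were higher in any setting. Of the pathway genes, 2 were lower and 1 higher with median centring, 1 and 1 without an intensity trend, and 5 higher at a threshold of 0.10. With 1 array left out 2 to 6 were lower and 1 to 5 higher. Over all probe sets, 555 were lower and 516 higher, against 314 and 282 with median centring, 344 and 271 without a trend and 350 and 301 on station 1 alone.

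Changes near 0 turned sign, with limma adjusted p of 0.38 to 0.999. With array weights they were 0.01 for Slc11a2 1417584_at, −0.06 for 1452078_a_at, and 0.01 and 0.02 for Aco1 1423644_at and 1456728_x_at. On station 1 alone they were −0.09 for Slc11a2 1452078_a_at, −0.14 and −0.09 for Fth1 1427021_s_at and 1448771_a_at, and 0.02 and 0.04 for Aco1. With quantile normalization Fth1 1448771_a_at was at −0.06. With 1 array left out they ran from −0.16 to 0.16, −0.10 to 0.06 and −0.07 to 0.15 for Slc11a2 1417584_at, 1441709_at and 1452078_a_at, −0.34 to 0.20 for Tfrc 1422967_a_at, −0.04 to 0.22 and −0.03 to 0.11 for Fth1, and −0.07 to 0.03 and −0.09 to 0.05 for Aco1. The cause was not tested.

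The labels number the arrays 1 to 3 in both groups, and deviations of same-numbered arrays correlated at 0.00778, 0.0395 and −0.0418. No pairing was seen in these values, but they cannot tell whether same-numbered pools were handled together. With the replicate number as a block 3 member probe sets were lower and 0 higher, and 4 pathway genes were lower and 2 higher. Over all probe sets 584 were lower and 517 higher with this block. Knockout arrays 1 and 3 correlated best with another number.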

Other observations

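The 3 probe sets that carry the symbol Ftl1 also carry that of its pseudogene Ftl1-ps2, and 1422301_at those of the microRNA genes Mir692-1, Mir692-2 and Mir692-3 too, so their signals cannot be assigned to the ferritin light chain. Probe set 1422301_at had signals of 523, 503 and 387 in wild type and of 346, 273 and 248 in knockout, with no overlap and a log2 change of −0.71 (SE 0.14, limma adjusted p = 0.0174). Probe set 1418364_a_at gave 4386, 4167 and 4725 against 3647, 3910 and 3343, with no overlap, and missed the threshold at −0.29 (limma adjusted p = 0.0816). On 1422302_s_at, with 5226, 4916 and 5696 against 4652, 5202 and 4864, the groups overlapped, at −0.10 (95% interval −0.28 to 0.07).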
